A study of Homo sapiens with 9 samples.

Results

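The genes NFKBIA, NFKBIE, NFKBIZ, TNFAIP3, TNIP1 and CYLD encode inhibitors and modulators of NF-κB signalling, and binding of p65 and TEAD around them was read from 5 deposited lists of chromatin immunoprecipitation sequencing (ChIP-seq) peaks. A peak was counted at a gene when its summit, its highest point, lay within 25 kb of the hg19 position of that gene, in either direction. This gave 111 peaks of 60345, and peaks that overlapped by at least 1 bp across lists were joined into 37 sites. Those positions are 35873960 on chromosome 14 for NFKBIA, 44233525 on chromosome 6 for NFKBIE, 101546834 on chromosome 3 for NFKBIZ, 138188325 on chromosome 6 for TNFAIP3, 150467221 on chromosome 5 for TNIP1 and 50775961 on chromosome 16 for CYLD. Distances below are in bp from them, positive in the direction of transcription.

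All libraries are from 786-O, an established cell line of human clear cell renal carcinoma grown in serum. p65, the RELA subunit of NF-κB, was immunoprecipitated from cells labelled siTEAD4 in the title and siTEAD in the treatment label, from their control, from cells treated with XMU-MP-1, which inhibits MST1 and MST2, kinases of the Hippo pathway, and from vehicle cells. TEAD was immunoprecipitated from XMU-MP-1 cells, with an antibody whose TEAD protein the labels do not name. With a single library for every condition, differences between lists carry no test and no check by replicates. The libraries of 4 inputs were not analysed here. Doses, times and what the control cells received are not given in the labels. Peak identifiers in the list labelled siTEAD4 carry the name p65_Vert, which is in no label, so its treatment rests on the sample label alone.

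NF-κB dimers are held in the cytoplasm by inhibitors of the IκB family until a stimulus has these inhibitors phosphorylated and degraded. Freed dimers then switch on the genes of their own inhibitors, which ends the response: NFKBIA and TNFAIP3 are textbook examples of such negative feedback. TEAD proteins bind DNA for the coactivators YAP and TAZ, which the Hippo kinases restrain.

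The promoters of these genes are shown because a κB site in them is the textbook route by which NF-κB reaches its inhibitors. Both strands of the RefSeq promoters in build GRCh38.p14, from 250 bases before to 50 after each annotated start, were searched for GGGA followed by any 4 bases and CC, and for the NF-κB consensus decamer. A promoter entry was found for 5 of the 6 genes, 9 entries in all, and NFKBIE has none in the table. The entry farthest upstream of each of the 5 genes and the second entry of NFKBIZ follow 5′ to 3′ in the direction of transcription, with matches in capitals. Their coordinates are chr14:35404700-35404999 on the minus strand for NFKBIA, chr3:101827740-101828039 and chr3:101849264-101849563 on the plus strand for NFKBIZ, and chr6:137867009-137867308 on the plus strand for TNFAIP3. They are chr5:151080985-151081284 on the minus strand for TNIP1 and chr16:50741836-50742135 on the plus strand for CYLD.
NFKBIA promoter 1: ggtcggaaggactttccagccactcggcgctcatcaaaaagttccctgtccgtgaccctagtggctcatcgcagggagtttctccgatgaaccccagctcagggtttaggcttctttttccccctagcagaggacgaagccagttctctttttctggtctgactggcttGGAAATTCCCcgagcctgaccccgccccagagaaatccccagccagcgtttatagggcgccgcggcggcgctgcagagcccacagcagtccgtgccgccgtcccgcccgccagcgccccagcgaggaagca
NFKBIZ promoter 1: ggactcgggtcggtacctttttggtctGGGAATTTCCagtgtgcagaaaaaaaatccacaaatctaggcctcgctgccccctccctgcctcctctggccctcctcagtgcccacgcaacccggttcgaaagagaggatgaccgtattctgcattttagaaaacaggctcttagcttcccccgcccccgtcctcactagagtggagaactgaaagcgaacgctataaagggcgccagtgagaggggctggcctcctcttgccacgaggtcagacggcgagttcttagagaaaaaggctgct
NFKBIZ promoter 2: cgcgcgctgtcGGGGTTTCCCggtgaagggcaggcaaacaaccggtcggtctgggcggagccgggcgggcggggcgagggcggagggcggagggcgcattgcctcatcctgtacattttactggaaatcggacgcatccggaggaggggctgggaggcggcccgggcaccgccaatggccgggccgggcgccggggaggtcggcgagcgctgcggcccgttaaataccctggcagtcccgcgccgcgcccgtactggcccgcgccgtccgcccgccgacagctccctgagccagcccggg
TNFAIP3 promoter 1: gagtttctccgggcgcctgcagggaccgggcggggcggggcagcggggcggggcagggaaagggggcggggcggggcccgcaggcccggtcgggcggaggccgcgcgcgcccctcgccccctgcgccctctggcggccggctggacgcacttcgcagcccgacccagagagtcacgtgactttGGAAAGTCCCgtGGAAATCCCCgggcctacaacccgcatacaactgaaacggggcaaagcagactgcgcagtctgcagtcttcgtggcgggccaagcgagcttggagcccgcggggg
TNIP1 promoter 1: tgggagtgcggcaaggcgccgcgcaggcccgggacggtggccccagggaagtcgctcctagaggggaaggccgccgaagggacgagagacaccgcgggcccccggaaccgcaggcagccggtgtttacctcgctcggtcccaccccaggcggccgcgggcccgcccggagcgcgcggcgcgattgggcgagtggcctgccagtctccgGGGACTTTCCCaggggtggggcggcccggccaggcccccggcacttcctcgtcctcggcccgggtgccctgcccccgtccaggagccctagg
CYLD promoter 1: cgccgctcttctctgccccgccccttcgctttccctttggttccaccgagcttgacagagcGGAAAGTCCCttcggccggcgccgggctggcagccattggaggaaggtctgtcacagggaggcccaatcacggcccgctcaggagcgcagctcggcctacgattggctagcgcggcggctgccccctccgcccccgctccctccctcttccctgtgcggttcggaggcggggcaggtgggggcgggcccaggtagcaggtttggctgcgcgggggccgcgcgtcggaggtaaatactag

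The spelled motif was found in 7 of the 9 entries, and in 25.6% of all 35116 promoters of the same length. The consensus decamer was likewise in 7 of 9, against 5.91% of all promoters, and most of its matches are the same bases as those of the spelled motif. The match of NFKBIA lies at bases -81 to -72 from the start, and that of NFKBIZ at -223 to -214 from its first start. TNFAIP3 has a match at -67 to -58 and another, of the decamer alone, at -55 to -46. In TNIP1, matches on both strands overlap between -42 and -32 from the start of its first entry. That start lies 6651 bp downstream of where the span of TNIP1 begins in GRCh38. These bases are therefore not distances from the gene position used for the peaks. The match of CYLD lies at -189 to -180. Neither the TEAD motif GGAATG, present in 14.0% of all promoters, nor the AP-1 motif TGANTCA, present in 7.71%, was in any of the 9 entries. A match describes the letters of the sequence, and its absence says only that they are not in that window. No hg19 sequence was used, so these distances belong to GRCh38 and were not matched to the peaks base by base.

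p65 peaks lay at all 6 genes in the list labelled siTEAD4 and in the control list, where 2.48% and 16.4% of 61860 tiles of 50 kb genome-wide held a peak. With XMU-MP-1, 5 of the 6 genes had one, NFKBIZ being the exception, and with vehicle all 6 did, where 2.22% and 18.3% of tiles held a peak. TEAD peaks lay at 5 of the 6 genes, CYLD being the exception, with 22.5% of tiles holding one. By list, 16 of 1813 peaks labelled siTEAD4, 26 of 15465 control, 12 of 1649 XMU-MP-1, 32 of 17958 vehicle and 25 of 23460 TEAD peaks belong to the 6 genes. TNIP1 alone holds 48 of the 111 peaks, NFKBIA 20, TNFAIP3 16, NFKBIE 12, NFKBIZ 8 and CYLD 7.

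The authors give each peak a fold, the pileup of fragments at its summit over the local background of that library. Because each fold is relative to its own background, folds of 2 lists are set side by side as values, and each ratio is read against the ratios of all peaks found in both lists. Intervals on a fold are 95% Poisson intervals from the number of fragments at the summit, solved from the fold and the p-value, with the background taken as fixed. The median fold of the peaks at the 6 genes was 6.22 in the list labelled siTEAD4 and 10.2 in the control list, against 5.37 and 5.98 over the whole lists. With XMU-MP-1 it was 8.35 and with vehicle 8.79, against 5.96 and 5.87 over the whole lists. TEAD peaks at these genes had a median fold of 5.22, below the 6.27 of the whole list.

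**Figure D1:**
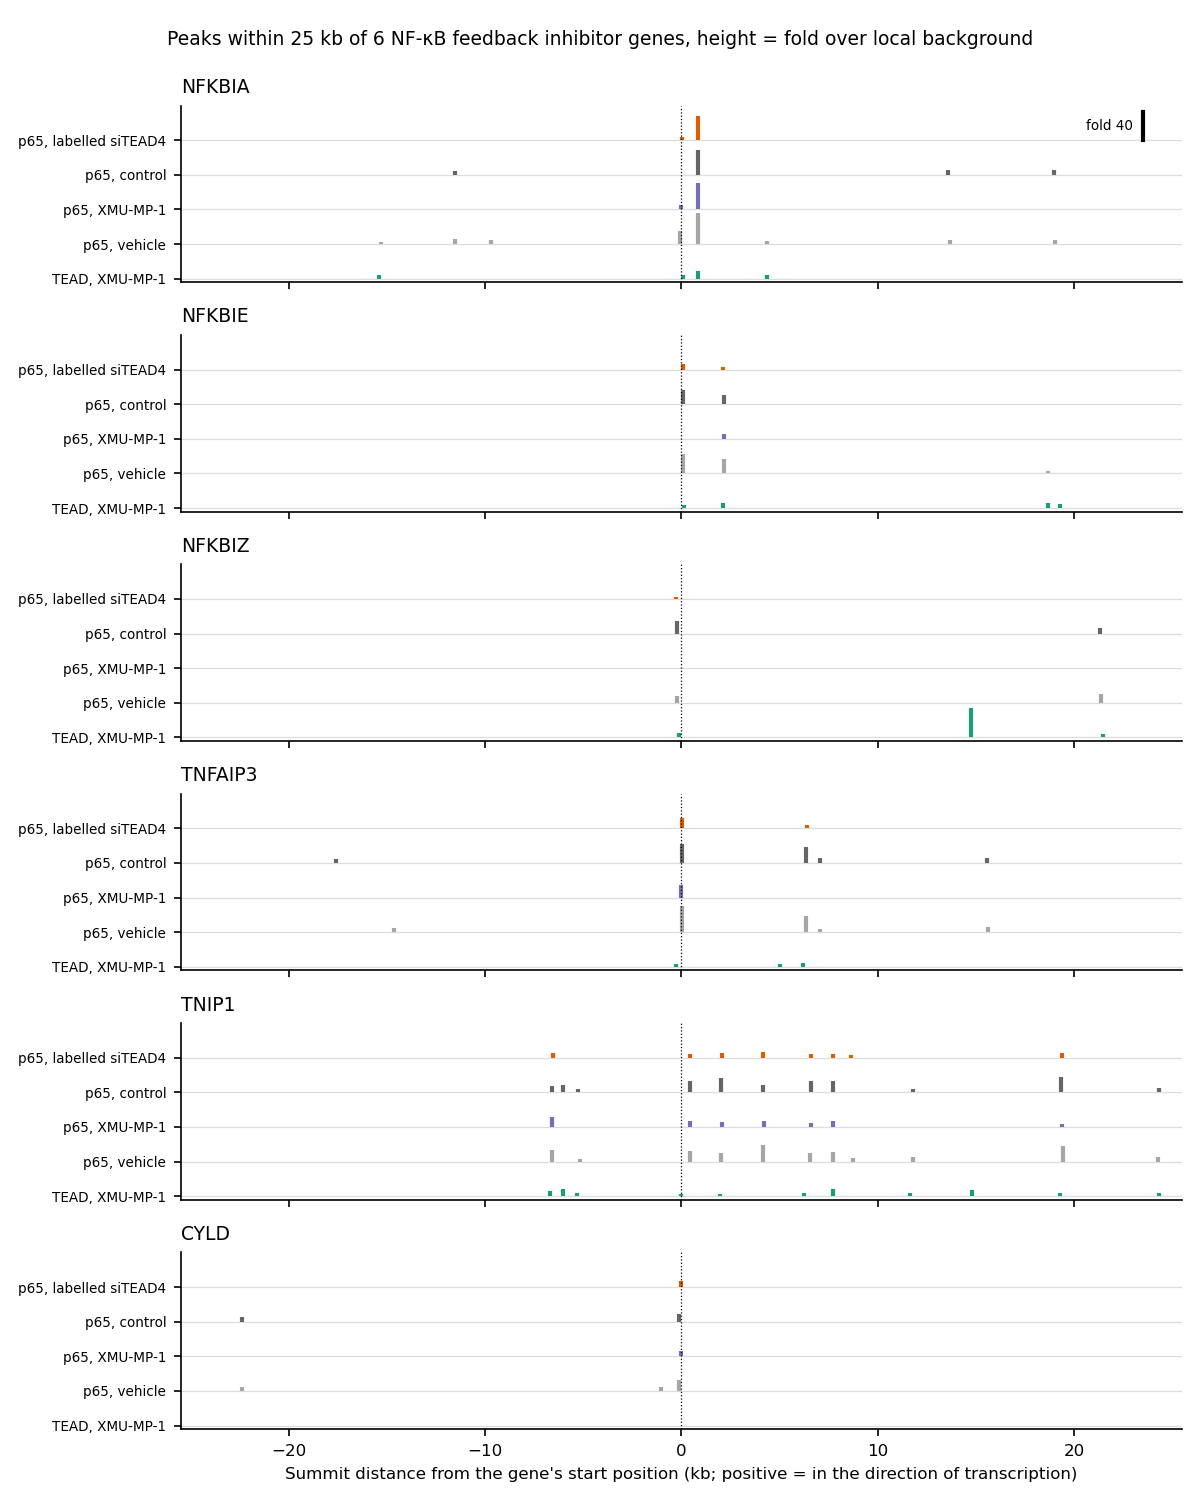
Peaks at the 6 genes. Each bar stands at a summit, at its distance in kb from the gene position (dotted line), and its height is the fold over local background; rows are the 5 lists, and the black bar marks a fold of 40. The p65 peaks of the list labelled siTEAD4 and of the XMU-MP-1 list gather within 10 kb of the gene positions, with TNIP1 at 19417 bp as the exception, and the single tall TEAD peak at NFKBIZ has no p65 peak under it.

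NFKBIA encodes IκBα, the classical inhibitor that binds NF-κB dimers and is itself made again after they act. It held the strongest p65 peak of both treated lists and, by the ratio of folds to the control or vehicle list, the ratio nearest to 1 among the kept peaks at the 6 genes, with TNIP1 at -6605 practically level with it for XMU-MP-1. That peak lies inside the gene, with p65 summits 837 to 862 bp downstream of the start, in a joined site at chr14:35872699-35874367. Its fold was 34.2 (interval 28.9 to 40.2, 145 fragments) in the list labelled siTEAD4 and 35.5 (31.1 to 40.2, 240 fragments) in the control list. It was 38.2 (33.2 to 43.8, 204 fragments) with XMU-MP-1 and 44.3 (37.3 to 52.1, 141 fragments) with vehicle. Fragments are counted before the scale of each list, so these counts are not to be compared between lists. The scaled pileups were 145 in the list labelled siTEAD4 and 141 in control, and 160 with XMU-MP-1 and 141 with vehicle. By fold the peak ranked 1 in both treated lists, 13 in the control list and 9 in the vehicle list. The intervals of each pair overlap.

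A second summit of the same site lay at the NFKBIA start itself and was far weaker. It had a fold of 4.04 at +12 in the list labelled siTEAD4, while the control list has 1 peak of 1505 bp across both places with 1 summit. It had a fold of 5.84 at -42 with XMU-MP-1 and 18.9 at -59 with vehicle. So within a single gene the summit downstream of the start had an XMU-MP-1 to vehicle fold ratio of 0.863, and the summit at the start 0.309, with intervals that overlap at the downstream summit and not at the start. TEAD had folds of 11.7 at +865 and 5.17 at +54, so both summits had a TEAD peak. The TEAD summit lay 26 bp from the downstream p65 summit of the list labelled siTEAD4, 9 bp from that of the control, 28 bp from that of XMU-MP-1 and 3 bp from that of vehicle.

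The other 6 NFKBIA sites, from -15307 to +18968, were far lower than the main peak. They had control folds of 4.80 to 6.41 and vehicle folds of 3.10 to 7.50, and no peak in either treated list. TEAD was at 2 of them, at -15307 and +4380, with folds of 4.85 and 4.69.

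NFKBIE encodes IκBε, a further cytoplasmic inhibitor of NF-κB. A pair of places near its position carried p65: the start at +87 (chr6:44233134-44233634) and a site at +2191 (chr6:44230911-44231652). At the start the fold was 7.90 (5.57 to 10.9) in the list labelled siTEAD4 and 20.8 (17.4 to 24.6) in the control list. XMU-MP-1 gave no peak there, and vehicle gave a fold of 27.6 (21.9 to 34.3), which ranked 97 of 17958. The site at +2191 had a peak with XMU-MP-1, with a fold of 7.07, against 21.3 in vehicle. Its fold was 3.46 in the list labelled siTEAD4 and 13.9 in the control list. TEAD peaks of 4.83 and 7.66 lay at these places. Farther out, a site at +18669 had a vehicle fold of 4.14 and a TEAD fold of 6.98, and a site at +19307 had TEAD alone at 5.29. SLC29A1, HSP90AB1, SLC35B2, TMEM151B and DRC5 also lie within 25 kb of NFKBIE in the GRCh38 annotation.

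NFKBIZ encodes IκBζ, a nuclear member of the family that, unlike IκBα, can act as a coactivator at some NF-κB target genes. p65 lay just upstream of its position at -237 (chr3:101546294-101546853) and at +21364 (chr3:101567927-101568460). In GRCh38 the second NFKBIZ promoter entry starts 21524 bp downstream of the first. At -237 the fold was 3.32 (2.16 to 4.92) in the list labelled siTEAD4 and 17.8 (14.5 to 21.5) in the control list, a ratio of 0.187. The pileup was 23 against 60.4, and the local background 6.22 against 2.46, so the ratio of folds reflects both. XMU-MP-1 gave no peak there, and vehicle gave 10.1 (7.58 to 13.2). The 2 reference lists themselves differed at this site, with a vehicle to control ratio of 0.568 and intervals that do not overlap. Their local backgrounds there were 4.25 in vehicle and 2.46 in control. At +21364 neither treated list had a peak, the control fold was 7.59 and the vehicle fold 12.5. TEAD had folds of 6.31 at the first and 5.11 at the second.

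The strongest TEAD peak of the 6 genes lies within the span of NFKBIZ, 14730 bp downstream of its position, at chr3:101561299-101561820. Its fold was 42.9 (35.4 to 51.6, 112 fragments), which ranked 76 of 23460, and no p65 list had a peak there. It was the single TEAD peak at these genes in the strongest 10% of its list. The other TEAD peaks had folds between 3.48 and 11.7.

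TNFAIP3 encodes A20, an enzyme that edits ubiquitin chains on signalling proteins upstream of NF-κB. Its start carried p65 in every list, at chr6:138187750-138188651, with 4 p65 summits within 39 bp. The fold was 14.2 (11.1 to 17.9) in the list labelled siTEAD4 and 27.7 (23.9 to 31.9) in the control list. It was 17.9 (14.6 to 21.8) with XMU-MP-1 and 37.3 (30.8 to 44.6) with vehicle. In both pairs the interval lay below that of the control or vehicle. Within its own list the peak ranked 45 of 1813 in the list labelled siTEAD4 and 73 of 15465 in the control, and 33 of 1649 with XMU-MP-1 and 24 of 17958 with vehicle; lists of such different length make these ranks a description only. TEAD had a fold of 4.29 there, with its summit 258 to 297 bp from those of p65.

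A second TNFAIP3 site, at +6370 and inside the gene, was the next strongest of this gene in the control and vehicle lists. Its fold was 5.42 (3.69 to 7.70) in the list labelled siTEAD4 and 22.7 (18.9 to 27.1) in the control list. No peak was called with XMU-MP-1, against 24.1 (19.1 to 30.0) with vehicle. TEAD had a fold of 5.58. The other 5 TNFAIP3 sites had no peak in a treated p65 list: control folds at them were 5.49 to 7.0, vehicle folds 4.30 to 7.27, and TEAD stood alone at +5030 with 3.83.

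TNIP1 encodes ABIN-1, which binds A20 and ubiquitin chains and restrains the same pathway. It was the most densely bound of the 6 genes, with 13 sites over its 50 kb window. It held 8 peaks of the list labelled siTEAD4, a number reached by 1 of 61860 tiles of 50 kb, and 11 control peaks, reached by 2. It held 7 XMU-MP-1 peaks, reached by 2 tiles, and 11 vehicle peaks, reached by 4. Its 11 TEAD peaks are reached by 11 tiles. Tiles lie on a fixed grid and can cut a cluster of peaks, while the window is centred on the gene. These numbers of tiles are therefore a description only. GPX3 and ANXA6 also lie within 25 kb of its position, and in GRCh38 the span of TNIP1 begins 6651 bp upstream of the start of its first promoter entry.

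At 7 TNIP1 sites all 4 p65 lists had a peak: -6605, +421, +2001, +4156, +6580, +7704 and +19417. The folds labelled siTEAD4 were 7.27, 5.40, 6.48, 8.94, 5.88, 5.95 and 6.67 at these sites in that order. The control folds were 9.93 (the higher of 2 peaks, at -6054, the other being 9.10 at -6575), 16.3, 20.1, 10.5, 15.8, 15.7 and 21.6. The folds labelled siTEAD4 thus spanned a narrow range and were lower than those of the control at every one of these sites, with overlapping intervals at -6605 and +4156. With XMU-MP-1 the folds were 13.8, 8.37, 6.86, 8.79, 6.15, 8.83 and 4.34. With vehicle they were 16.1, 15.0, 13.1, 23.4, 12.0, 13.8 and 23.2. The site upstream of the gene position kept most of its fold, with a ratio of 0.858, while the site at +19417, among the strongest in vehicle, had the lowest ratio, 0.188. Intervals overlap between XMU-MP-1 and vehicle at -6605 and +7704.

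TEAD was at 5 of these 7 TNIP1 sites and at neither +421 nor +4156. Its folds were 10.8 at -6605, 3.48 at +2001, 4.41 at +6580, 11.1 at +7704 and 4.61 at +19417. At +7704 the p65 and TEAD summits lay 8 to 17 bp apart in the 4 p65 lists. At -6605 the distance to the highest TEAD peak overlapped was 552 bp in the list labelled siTEAD4. It was 37 and 107 bp for the 2 control peaks, 565 bp with XMU-MP-1 and 588 bp with vehicle. TEAD had 2 peaks at this site, with summits at -6017 and, for the lower one of fold 7.15, at -6682. The p65 summits lay at -6569 in the list labelled siTEAD4 and at -6054 and -6575 in the control list. They lay at -6582 with XMU-MP-1 and -6605 with vehicle, so these p65 summits are nearer to the lower TEAD peak. The weaker sites at -5295, +11812 and +24279, had TEAD and both reference p65 lists, with control folds of 5.18, 5.29 and 6.03, vehicle folds of 3.58, 6.83 and 6.79, and no treated p65 peak. The site at +8754 was called at 4.04 in the list labelled siTEAD4 and at 5.48 in vehicle alone, the only site with a peak labelled siTEAD4 and no control peak. TEAD stood alone at -35 with 3.51 and at +14786 with 9.69.

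CYLD encodes a deubiquitinase that removes chains from regulators of NF-κB. Its p65 peak at the start, at chr16:50775362-50776523, had a fold of 8.56 (6.09 to 11.7) in the list labelled siTEAD4 and 11.6 (9.43 to 14.1) in the control list. It was 8.34 (6.01 to 11.3) with XMU-MP-1 and 15.3 (11.3 to 20.2) with vehicle. The intervals overlap in the first pair and, by a narrow margin, not in the second. Summits lay at -32 in the list labelled siTEAD4 and -143 in the control list, and at -22 with XMU-MP-1 and -139 with vehicle. No TEAD peak lay within 25 kb of CYLD. Its other sites, at -1067 and -22411, had vehicle folds of 5.12 and 6.22, and a control peak of 6.40 at -22411; NOD2 also lies within 25 kb in the annotation.

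**Figure D2:**
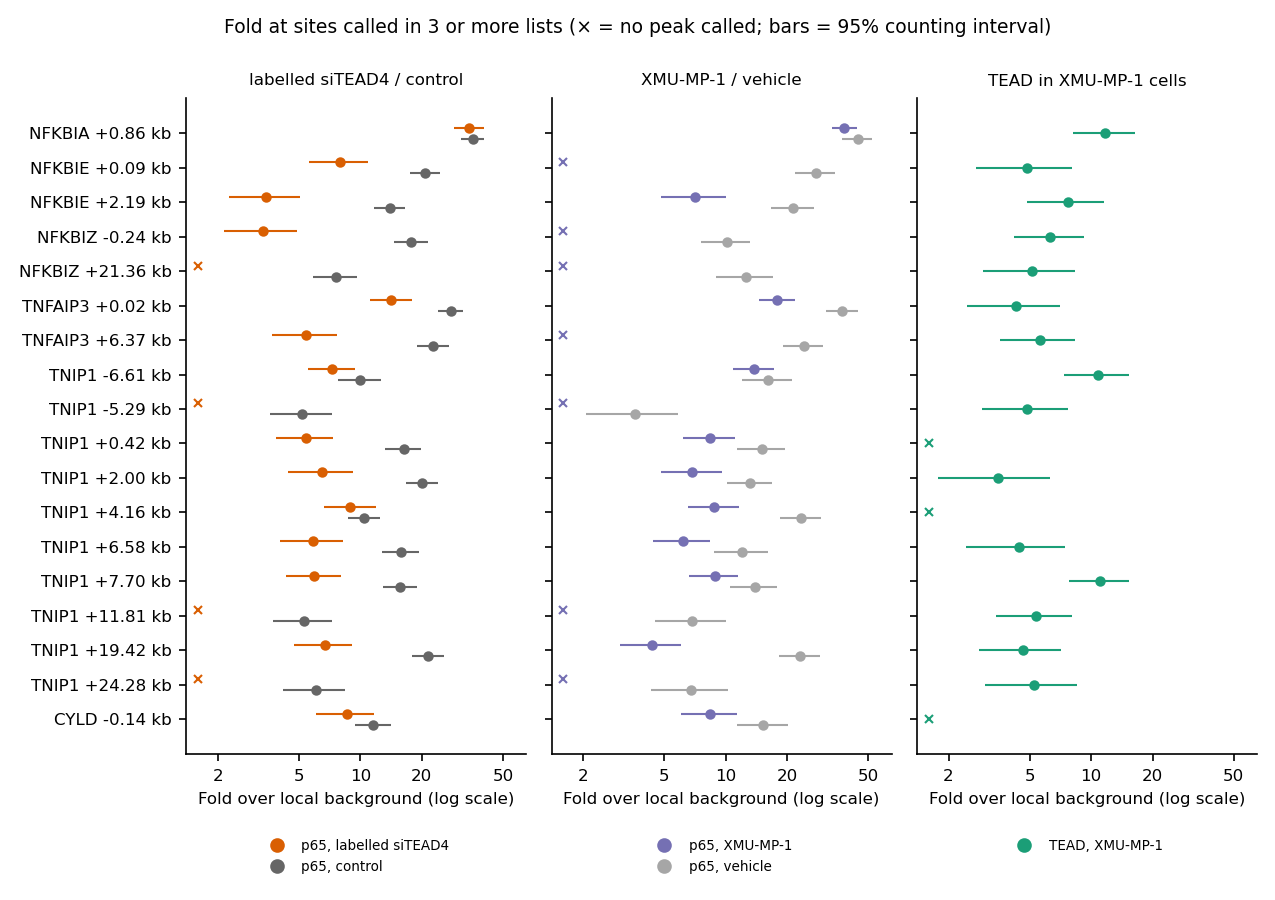
Fold over local background at the 18 sites called in 3 or more lists, named by gene and distance from its position in kb, for the pair of the list labelled siTEAD4 and control, the pair of XMU-MP-1 and vehicle, and TEAD. Points are the highest peak of a list at a site, bars its 95% counting interval, and a cross marks no called peak. At NFKBIA the points of each pair, on a log axis, are 34.2 and 35.5 in the first panel and 38.2 and 44.3 in the second.

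Over the 6 genes, 15 of 26 control peaks were kept in the list labelled siTEAD4, that is overlapped by at least 1 bp (57.7%, 95% exact binomial interval 36.9 to 76.6), against 11.2% of all control peaks. In the other pair 12 of 32 vehicle peaks were kept with XMU-MP-1 (37.5%, 21.1 to 56.3), against 8.77% of all vehicle peaks. Without TNIP1, which holds the most peaks, the shares at the other 5 genes were 46.7% and 23.8%. Peaks at these genes are stronger than most, so the strongest 10% of each reference list by fold is also given. There, 11 of 11 control peaks at the 6 genes were kept in the list labelled siTEAD4 (100%, 71.5 to 100), against 57.5% of all such peaks. With XMU-MP-1, 11 of 14 vehicle peaks were kept (78.6%, 49.2 to 95.3), against 46.6%. The 3 not kept were those of NFKBIE at +87, TNFAIP3 at +6370 and NFKBIZ at +21364. Strength was not matched within this 10%. By fold, the 11 control peaks ranked 13, 73, 185, 227, 274, 316, 517, 727, 807, 834 and 1160 of 1547. The 14 vehicle peaks ranked 9, 24, 97, 196, 217, 226, 340, 524, 892, 1042, 1093, 1343, 1535 and 1751 of 1797. Among the weaker peaks 4 of 15 control peaks (26.7%, 7.79 to 55.1) were kept, against 6.09%, and 1 of 18 vehicle peaks (5.56%, 0.141 to 27.3), against 4.56%. These intervals cover the counting of peaks only, and peaks of 1 gene are not independent. The peak labelled siTEAD4 at TNIP1 -6605 overlapped 2 control peaks, and both were counted as kept.

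**Figure D3:**
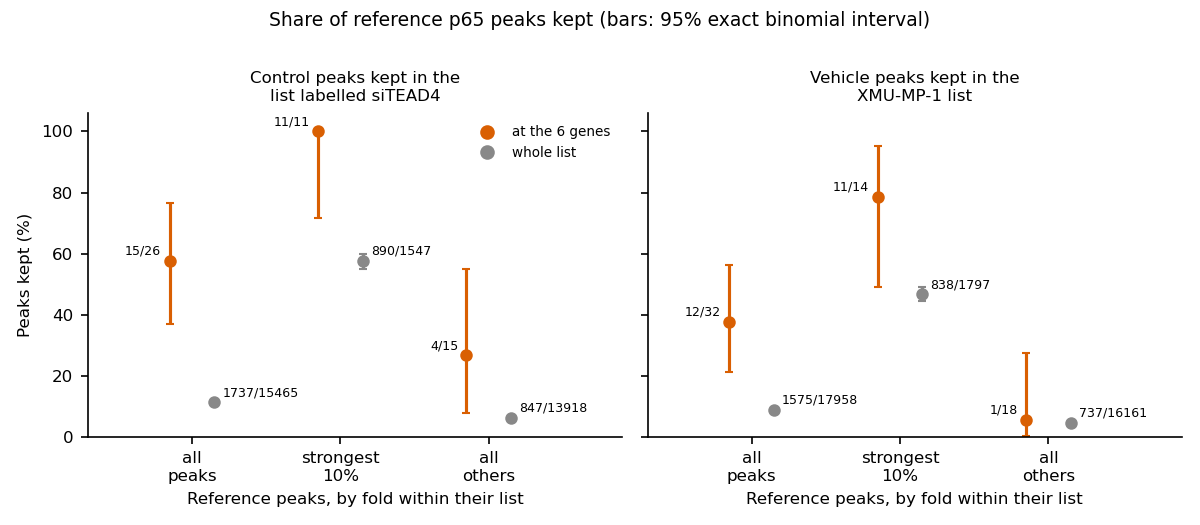
Share of reference p65 peaks, in percent, kept in the treated list: peaks at the 6 genes and all peaks of the list, over all strengths, in the strongest 10% by fold and in the others. Bars are 95% exact binomial intervals and the numbers are kept over total. In the strongest 10% all 11 control peaks at the 6 genes were kept, and 11 of 14 vehicle peaks.

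Most kept peaks lay near the gene positions. Within 10 kb, 14 of 16 control peaks were kept in the list labelled siTEAD4, and between 10 and 25 kb 1 of 10, TNIP1 at +19417. With XMU-MP-1, 11 of 20 vehicle peaks were kept within 10 kb and 1 of 12 beyond, again TNIP1 at +19417. Strength went along with distance: the median fold was 15.7 within 10 kb and 6.33 beyond in the control list, and 14.4 and 6.51 in the vehicle list. Distance and strength cannot be told apart in so few peaks, and the share over all gene starts was not analysed here.

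The treated lists shared most of their sites. All 12 XMU-MP-1 peaks at the 6 genes overlapped a peak labelled siTEAD4, against 72.3% of all XMU-MP-1 peaks, and 12 of the 16 peaks labelled siTEAD4 overlapped an XMU-MP-1 peak, against 66.0% of that list. Of the 24 sites in both reference lists, 11 were called in both treated lists, 3 in the list labelled siTEAD4 alone, none in the XMU-MP-1 list alone and 10 in neither. Those 3 were the starts of NFKBIE and NFKBIZ and TNFAIP3 at +6370. Counted as the 25 control peaks with a vehicle peak, 12 were in both treated lists, against 9.56% of all 12297 such peaks, and 10 in neither, against 83.0%. The list labelled siTEAD4 alone held 3 (12.0%, 2.55 to 31.2), against 4.46%, and the XMU-MP-1 list alone held 0 (0 to 13.7%), against 3.02%, so both shares contain that of all peaks in their interval. The control and vehicle lists coincided at 24 of the 32 p65 sites. From the vehicle side, 25 of 32 peaks had a control peak (78.1%, 60.0 to 90.7), against 68.5% of all vehicle peaks. From the control side, 25 of 26 had a vehicle peak, against 79.5% of all control peaks, and the one without lay at -17597 of TNFAIP3 with a fold of 5.49.

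Among the peaks that were kept, folds were lower in the treated list, at the 6 genes as over the whole lists. Local backgrounds at these genes were mostly higher in the treated list. The exceptions were TNIP1 +4156 and the CYLD start for the list labelled siTEAD4, and TNIP1 +2001 for XMU-MP-1. A lower fold is therefore not by itself a lower pileup. The pileup was nonetheless lower in the treated list at all kept peaks but NFKBIA at +862 and TNIP1 at -6605, in both pairs. At NFKBIA it was 145 in the list labelled siTEAD4 and 141 in control, and 160 with XMU-MP-1 and 141 with vehicle. Depths of the libraries are not in the lists, so pileups of 2 lists are not on a common scale. The interval of the list labelled siTEAD4 lay wholly below that of the control at 10 of 15 kept peaks (66.7%, 38.4 to 88.2). Over all kept control peaks this share was 64.5%. In the strongest 10% it was 10 of 11 (90.9%, 58.7 to 99.8), against 92.7%, with NFKBIA as the exception. For XMU-MP-1 the interval lay below that of vehicle at 9 of 12 kept peaks (75.0%, 42.8 to 94.5), against 53.9%. The exact interval of each of these shares, and of the next, contains the share of the whole list. In the strongest 10% of vehicle it was 8 of 11 (72.7%, 39.0 to 94.0), against 84.7%. The 3 exceptions were NFKBIA at +862 and TNIP1 at +7704 and -6605. No interval at the 6 genes lay wholly above its reference, and 0.288% and 0.254% of all kept peaks had one that did. Between vehicle and control, 1 of 25 intervals lay below, at NFKBIZ, and 3 above, at TNIP1 +4156, TNIP1 -6605 and NFKBIE +2191, against 1.94% and 4.94% of all. Local backgrounds differed at these places: 4.25 in vehicle and 2.46 in control at NFKBIZ, and 2.24 and 4.255 at NFKBIE +2191. The vehicle background was also the lower at both TNIP1 sites. The pileup was lower in vehicle at NFKBIZ, TNIP1 -6605 and NFKBIE +2191, and 76 against 72.2 at TNIP1 +4156. How much of each fold difference comes from the background was not tested.

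The NFKBIA peak stood at one end of these ratios. Its fold labelled siTEAD4 was 0.965 of the control fold, the rank of 4 among 890 kept peaks of the strongest 10%, whose median ratio was 0.357. NFKBIZ at -237 stood near the other end, with 0.187 and a rank of 858, and TNFAIP3 at the start had 0.513 and a rank of 140. At NFKBIZ the local background was 6.22 in the list labelled siTEAD4 and 2.46 in the control list. The median over the 11 kept peaks at the 6 genes was 0.331. For XMU-MP-1 over vehicle NFKBIA had 0.863, a rank of 15 among 838, followed by TNIP1 at -6605 with 0.858 and a rank of 17. TNIP1 at +19417 ranked 809 with 0.188. The median was 0.523 over the 11 kept peaks at the 6 genes, against 0.385 over all kept peaks of the strongest 10%.

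**Figure D4:**
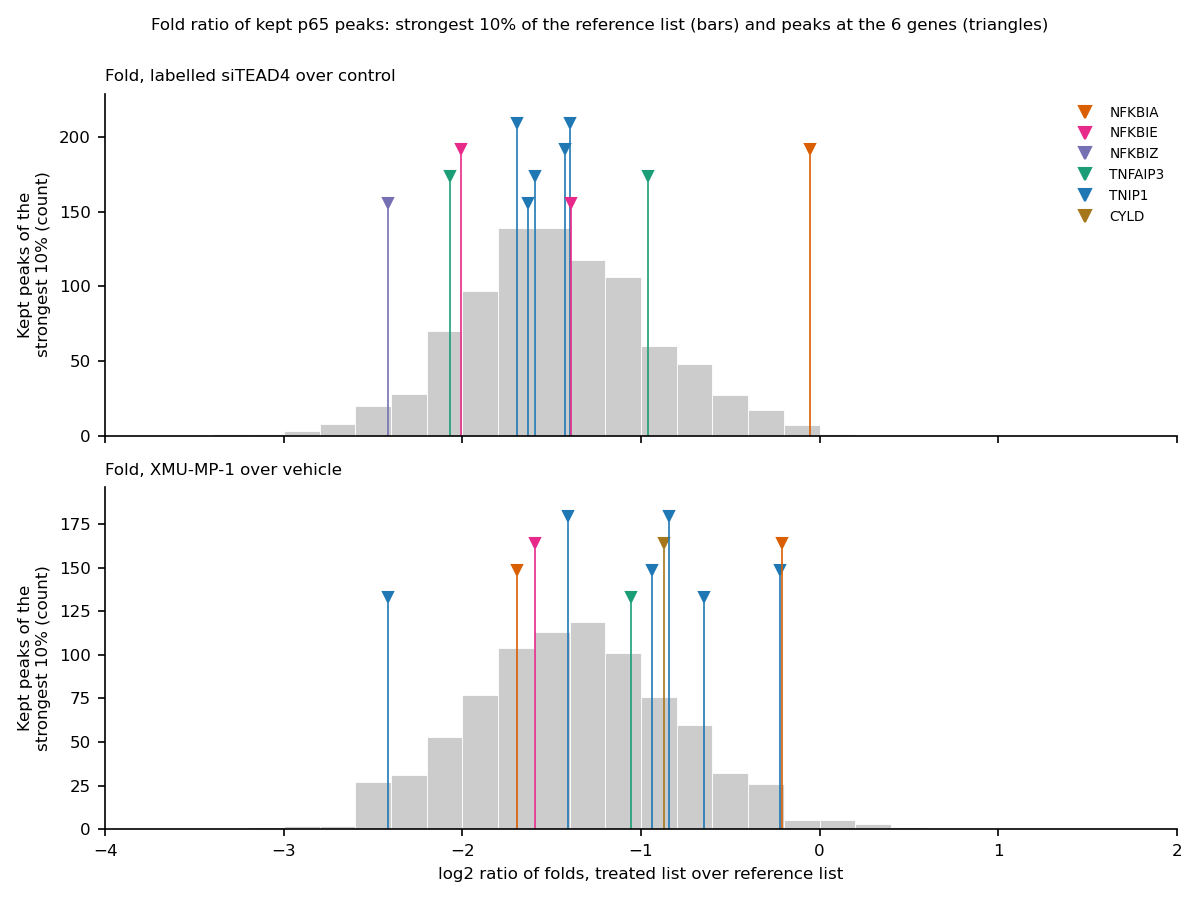
log2 ratio of folds for p65 peaks kept in the treated list, restricted to the strongest 10% of the reference list by fold; grey bars count all such peaks and triangles mark those at the 6 genes, at heights that carry no value. Upper panel, the list labelled siTEAD4 over control; lower panel, XMU-MP-1 over vehicle. NFKBIA at +862 lies at the right of both panels, with ratios of 0.965 and 0.863.

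TEAD overlapped 12 of the 16 peaks labelled siTEAD4 at these genes (75.0%, 47.6 to 92.7) and 16 of 26 control peaks (61.5%, 40.6 to 79.8), against 71.6% and 47.4% over the whole lists. It overlapped 8 of 12 XMU-MP-1 peaks (66.7%, 34.9 to 90.1) and 19 of 32 vehicle peaks (59.4%, 40.6 to 76.3), against 75.2% and 45.6%. Each of these intervals contains the share of its whole list. With TEAD peaks limited to a −log10 q of at least 10, the shares were 31.2% of the peaks labelled siTEAD4 and 23.1% of control peaks at the 6 genes, against 51.7% and 28.0% of the whole lists. They were 33.3% with XMU-MP-1 and 18.8% with vehicle, against 56.3% and 26.6%, so at this limit all 4 lay below the whole list, each with an interval that contains it. Of the TEAD peaks, 20 of 25 at the 6 genes overlapped a p65 peak of any list (80.0%, 59.3 to 93.2), against 39.7% of all TEAD peaks. The p65 and TEAD summits lay a median of 90 bp apart in the list labelled siTEAD4 and 65.5 in the control. With XMU-MP-1 the median was 86.0 and with vehicle 94.0. All overlapping peaks of these lists had medians of 61.0, 56.0, 56.5 and 60.0 bp in that order. Each distance was taken to the highest TEAD peak overlapped, which is not always the nearest.

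The limit of 25 kb fell among peaks of moderate strength. The 8 peaks between 20 and 25 kb from a gene position had folds of 5.11 to 12.5, and the 40 peaks between 25 and 50 kb had folds of 2.71 to 15.3. Only 3 of those 40 were in a treated p65 list: a peak of 2.71 labelled siTEAD4 and one of 6.75 with XMU-MP-1, both between 27503 and 27626 bp from TNIP1, and one of 3.17 with XMU-MP-1 at 38323 bp from NFKBIA.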

How the data were processed

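Peaks of 5 immunoprecipitates from 786-O cells were used as the authors deposited them, 1 list per library in narrowPeak format. The submitters' processing notes name the hg19 build, fastp, MACS2 and Bowtie2 2.4.5. The version and settings of MACS2 and the input behind each list were not given in the sources used here. A deposited peak carries a fold over local background (a ratio), its p-value and its q-value as −log10, and the authors' whole-number score was not used. The lowest −log10 q of the deposited lists was 1.30 to 1.55.

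From these, summits were assigned to genes within 25 kb, peaks were overlapped by at least 1 bp, and shares were given exact (Clopper-Pearson) 95% intervals. Read totals are not in the lists. Fragments at each summit were solved from the fold, in which MACS2 adds 1 to pileup and background alike, and the Poisson p; they came out whole to within 0.01 in all of 400 peaks tried per list, after dividing by a scale of 0.587 in the control and 0.783 in the XMU-MP-1 list. Peaks at the 6 genes rest on 9 to 240 fragments. Intervals cover counting only, and those on folds leave out the counting error of the local background. Every site called in 3 or more lists, and the highest site of each list, was named; the others are given by ranges or counts.

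Promoters are RefSeq entries of GRCh38.p14, and their coordinates were not converted. Other genes of the pathway were not analysed here, since no hg19 annotation was used. The strand of NFKBIE is textbook knowledge. The genes, lists and choices were made with earlier results of these data known. Alternatives were the window, overlap rule, q limit and leaving out genes. Computation used Python 3.11.15 with numpy 2.4.6, pandas 2.3.3, scipy 1.17.1 and matplotlib 3.10.9, and was tested on simulated lists.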

Additional observations from a re-analysis of the deposited data

How the results depend on the processing

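No paired analysis was possible because no condition has a second library. The calls rest on called peaks, so a place with no peak may hold fewer fragments than the threshold needs. Of 105 alternatives, 88 kept their value within the limits set and 17 moved. These limits were wide. Shares of vehicle peaks kept with XMU-MP-1 of 55.0% and 23.8%, against 37.5% in the main setting, both counted as within them. With a window of 10 kb the control list had 16 peaks at the 6 genes, the vehicle list 20 and the TEAD list 16. At a −log10 q of at least 10 the vehicle list had 20 and the TEAD list 9. Without TNIP1 the list labelled siTEAD4 had 8 peaks, the control list 15, the XMU-MP-1 list 5, the vehicle list 21 and the TEAD list 14. Within 10 kb, 87.5% of control peaks had a peak labelled siTEAD4. In the strongest 10%, an alternative chosen after seeing the data, that share was 100% and the share of vehicle peaks kept with XMU-MP-1 was 78.6%. Leaving out 1 gene at a time gave 46.7 to 63.6% and 23.8 to 41.7%, with the lowest shares without TNIP1. With TEAD peaks at a −log10 q of at least 10, TEAD overlapped 31.2% of the peaks labelled siTEAD4, 23.1% of control, 33.3% of XMU-MP-1 and 18.8% of vehicle peaks at the 6 genes, against 75.0, 61.5, 66.7 and 59.4% without the limit.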
